A study of Mus musculus with 6 samples.

Results

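The Polycomb repressive complex PRC2, the DNA methyltransferases and the TET enzymes are among the main writers and erasers of marks of gene silencing. Of their genes, 10 were examined in cultured mouse muscle stem cells with and without prostaglandin E2 (PGE2). The members were taken by exact symbol from the deposited table of 43283 genes. They are the PRC2 core genes Ezh1, Ezh2, Eed and Suz12, the methyltransferase genes Dnmt1, Dnmt3a and Dnmt3b, and the oxygenase genes Tet1, Tet2 and Tet3. All 10 were found once each and all 10 passed the filter on low values (1 TPM or more in at least 3 of the 6 libraries), which kept 12781 genes. TPM, the unit of the table, gives the abundance of a transcript per length and per library, so levels can be compared between genes.

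Both groups were sorted α7-integrin+ CD34+ cells, negative for CD45, Sca1, CD31 and CD11b, from hindlimb muscle of female C57BL/6 mice with no transgene or deletion named. The age is given as 8 to 12 weeks in the protocol and as 2 to 4 months in the design text. Vehicle cells received DMSO and PGE2 cells received prostaglandin E2, a lipid mediator of injured tissue, for 24 h in a medium with 20% fetal bovine serum, and the groups had 3 libraries each, made from 5000 to 10000 cells. The dose is not given in the sources used here, nor is whether the replicates came from separate animals or cultures. The p-values therefore set group differences only against the variation between these libraries, which may be technical.

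PRC2 places methyl groups on H3K27, a histone mark of silenced developmental genes. EZH2 and its paralog EZH1 are the alternative catalytic subunits, SUZ12 holds the complex together, and EED reads the finished mark and stimulates further methylation. DNMT1 copies DNA methylation onto the new strand after replication, DNMT3A and DNMT3B methylate new sites, and the TET enzymes oxidise methylcytosine, a first step of its removal. In muscle stem cells EZH2 is known for holding genes of differentiation silent while the cells proliferate.

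The label of the cells was checked against 10 marker genes of muscle stem cells, all of which were tested. Their summed level was 780.1 to 985 TPM in the Vehicle libraries and 676 to 977 TPM in the PGE2 libraries. Pax7, Myf5 and Myod1, which define the lineage, were each above 20 TPM in every library. Endothelial markers summed to 4.16 to 7.42 TPM in Vehicle against 7.18 to 19.9 TPM in PGE2, and leukocyte markers to 2.88 to 11.1 and 7.17 to 11.1 TPM. Fibro-adipogenic markers summed to 19.2 to 31.5 TPM in Vehicle against 37.5 to 45.9 TPM in PGE2, most of it from the collagen gene Col3a1, while the defining marker Pdgfra stayed at or below 1.45 TPM. In the same list Ly6a, the gene for the Sca1 protein that the sort selected against, was at 2.22, 3.38 and 7.92 TPM in Vehicle against 0, 13.6 and 0 TPM in PGE2. Col1a1, another collagen gene, was at or below 0.44 TPM in all libraries but PGE2 3, where it was at 14.4 TPM, and the endothelial marker Emcn was likewise highest in PGE2 3, at 15.3 TPM against 0.87 TPM or less elsewhere. Glial markers summed to 2.89 to 4.71 and 2.14 to 9.01 TPM, and pericyte and smooth muscle markers to 7.04 to 16.0 and 10.2 to 12.0 TPM. No marker of these lists was at 0 in all 6 libraries. The tested markers were 10 of muscle stem cells, 3 endothelial, 3 leukocyte, 2 fibro-adipogenic, 1 glial and 1 of pericytes and smooth muscle. Of these, 0 passed limma's test or had an unadjusted p under 0.05. The groups did not overlap for 1 of them, an endothelial marker higher in every PGE2 library, beside 8.01% of all tested genes in either direction. Mitochondrial genes held 20.9% to 33.6% of the TPM in Vehicle against 23.0% to 30.4% in PGE2, and 15400 to 19677 genes were listed above 0. Read depth is unknown, because TPM does not keep it.

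Of the 10 genes, 0 passed the limma test of PGE2 against Vehicle at a Benjamini-Hochberg adjusted p under 0.05, as was the case for 0% of all 12781 tested genes, and 1 of the 10 had an unadjusted p under 0.05, a level reached in either direction by 3.63% of all tested genes. The catalytic PRC2 genes Ezh2 and Ezh1 were lower in every PGE2 library than in every Vehicle library, whereas Eed, Suz12, the 3 methyltransferase genes and the 3 TET genes overlapped between the groups. Ezh2 was at 152 ± 1.88 TPM in Vehicle against 98.9 ± 22.2 TPM with PGE2 (mean ± SD, n = 3 each), and Ezh1 at 3.68 ± 0.39 and 1.80 ± 1.05 TPM. The count of 2 of 10 genes with all PGE2 values below all Vehicle values stands beside 4.84% of all tested genes with that pattern, and 8.01% in either direction. Fitted values were lower in PGE2 for 7 of the 10, beside 56.1% of all tested genes, with a median log2 change of -0.24 beside -0.07 for all tested genes. These are changes of log2(TPM + 1), which understate those of low genes.

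**Figure D1:**
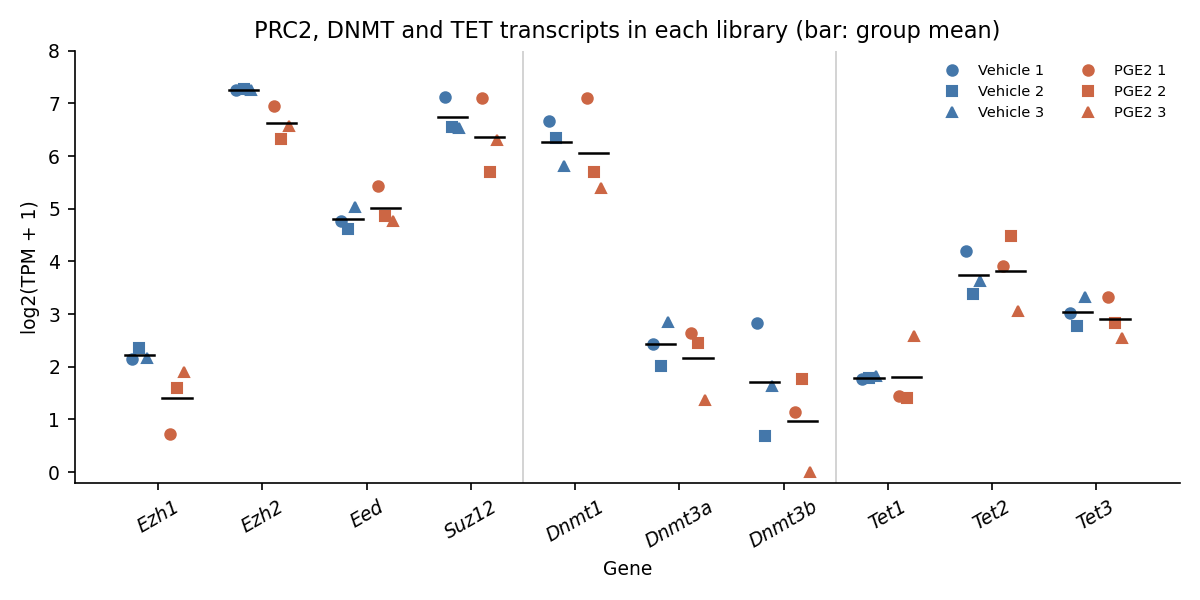
Log2(TPM + 1) of each gene (y axis) in each of the 6 libraries, Vehicle in blue and PGE2 in orange, with bars at the group means and marker shapes for replicates 1 to 3. Ezh2, Suz12 and Dnmt1 are the highest genes, the 3 Vehicle values of Ezh2 lie on top of each other above all PGE2 values, and PGE2 1 is the highest PGE2 library for Suz12, Eed and Dnmt1.

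The level of these genes spanned a wide range, and the order was led by PRC2. Averaged over the 6 libraries, Ezh2 was at 126 TPM, Suz12 at 97.9, Dnmt1 at 77.4 and Eed at 29.7 TPM. Below them came Tet2 at 13.5, Tet3 at 7.003, Dnmt3a at 4.17, Ezh1 at 2.74, Tet1 at 2.62 and Dnmt3b at 2.07 TPM. The steps from Dnmt1 to Eed, Eed to Tet2, Tet2 to Tet3 and Tet3 to Dnmt3a were seen in 6 of 6 libraries each. Ezh2 exceeded Suz12 in 3 of 3 Vehicle and 2 of 3 PGE2 libraries, and Suz12 exceeded Dnmt1 in 3 of 3 and 1 of 3. Dnmt3a exceeded Ezh1 and Tet1 exceeded Dnmt3b in 4 of 6 libraries each, so these neighbours did not differ beyond their spread. Ezh1 exceeded Tet1 in 3 of 3 Vehicle libraries, without overlap, and in 1 of 3 PGE2 libraries.

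Ezh2 (ENSMUSG00000029687, mm10 chromosome 6, 47530139 to 47595341, minus strand, protein-coding) encodes the catalytic subunit that dominates in dividing cells. It read 151, 154 and 151 TPM in Vehicle 1 to 3, against 123, 79.5 and 94.2 TPM in PGE2 1 to 3. The Vehicle libraries were close to identical, and all PGE2 libraries lay below them, with PGE2 2 lowest. The log2 change was -0.64 ± 0.28 (SE; 95% confidence interval -1.27 to -0.01), a 1.56-fold difference on this scale. By limma its unadjusted p was 0.0483, a level reached with lower values in PGE2 by 2.06% of all tested genes, and its Benjamini-Hochberg adjusted p was 1.00. The unadjusted p was 0.0118 without PGE2 1 and 0.141 without PGE2 2 in the same test, with log2 changes of -0.81 and -0.50, and leaving out any other library left it above 0.05. In such bulk RNA, fewer cells that express a gene and less of its RNA per cell cannot be told apart. The summed fibro-adipogenic markers also did not overlap between the groups, in the opposite direction, and their part in the Ezh2 values was not tested.

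Ezh1 (ENSMUSG00000006920, chromosome 11, 101191115 to 101226463, minus strand, protein-coding) encodes the paralog that is usually more prominent in resting cells. It read 3.43, 4.13 and 3.49 TPM in Vehicle against 0.66, 2.01 and 2.72 TPM in PGE2. Every PGE2 library was below every Vehicle library, and PGE2 1, the library with the highest Ezh2 of its group, had the lowest Ezh1. The log2 change was -0.82 ± 0.56 (SE; 95% confidence interval -2.06 to 0.42), with a limma p of 0.171 before and 1.00 after Benjamini-Hochberg adjustment. It was -0.48 without PGE2 1. Ezh1 was low, at or below 4.13 TPM in every library, and a filter on a mean of 5 TPM left it untested.

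Ezh2 supplied nearly all of the catalytic transcripts in each library. Its share of the sum of Ezh1 and Ezh2 was 97.8%, 97.4% and 97.7% in Vehicle and 99.5%, 97.5% and 97.2% in PGE2. The log2 ratio of Ezh2 to Ezh1, taken as (TPM + 1) over (TPM + 1), was 5.04 ± 0.10 in Vehicle and 5.21 ± 0.88 in PGE2 (mean ± SD, n = 3 each). The difference of 0.18 had an exact two-sided permutation p of 1.00 (Benjamini-Hochberg 1.00 over the 2 ratios tested), where 3 libraries against 3 cannot go below 0.10. The difference was 0.54 with a pseudocount of 0.1 and 0.61 with none, and it turned to -0.33 without PGE2 1.

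The stretches of 250 bases before the RefSeq start sites of these paralogs (GRCm38.p6, minus strand, 5′ to 3′) are shown because Ezh2 and Ezh1 were the members whose groups did not overlap. Capitals mark CCAAT in either orientation, a common promoter element. The Ezh2 stretch is chr6:47595031-47595280 and the Ezh1 stretch is chr11:101226464-101226713. The RefSeq start of Ezh2, at 47595030, lies inside the gene span given above, so its stretch does too. That of Ezh1, at 101226463, is the edge of its span.
Ezh2: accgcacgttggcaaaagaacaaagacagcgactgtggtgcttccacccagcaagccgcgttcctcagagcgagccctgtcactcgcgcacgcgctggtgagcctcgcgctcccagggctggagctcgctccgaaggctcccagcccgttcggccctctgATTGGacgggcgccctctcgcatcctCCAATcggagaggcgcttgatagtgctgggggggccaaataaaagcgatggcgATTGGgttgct
Ezh1: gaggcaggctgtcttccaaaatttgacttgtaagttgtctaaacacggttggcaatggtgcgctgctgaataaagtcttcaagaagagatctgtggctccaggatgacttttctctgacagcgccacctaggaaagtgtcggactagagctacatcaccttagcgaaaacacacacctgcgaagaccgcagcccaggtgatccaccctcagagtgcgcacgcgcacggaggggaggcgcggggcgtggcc
The Ezh2 window held CCAAT 3 times and the Ezh1 window 0 times, and 37.4% of all 32851 promoter windows held it.

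Suz12 (ENSMUSG00000017548, chromosome 11, 79993106 to 80034123, plus strand, protein-coding), the scaffold of the complex, read 139, 92.5 and 91.4 TPM in Vehicle against 136, 50.7 and 78.0 TPM in PGE2. PGE2 1 was as high as Vehicle 1, and the other PGE2 libraries were below all Vehicle libraries. The log2 change was -0.37 (95% confidence interval -1.24 to 0.50), with a limma adjusted p of 1.00. It was -0.74 without PGE2 1 and -0.03 without PGE2 2.

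Eed (ENSMUSG00000030619, chromosome 7, 89954654 to 89980983, minus strand, protein-coding), the reader of the methylated histone, read 26.3, 23.6 and 31.6 TPM in Vehicle against 42.3, 28.0 and 26.3 TPM in PGE2. Its fitted change was the only one above 0 among the PRC2 core genes, at 0.22 (95% confidence interval -0.56 to 0.99; limma adjusted p = 1.00), and its groups overlapped. It was 0.01 without PGE2 1.

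The summed PRC2 core was at 319, 275 and 278 TPM in Vehicle against 302, 160.1 and 201 TPM in PGE2, so that PGE2 1 lay among the Vehicle libraries. The makeup of the complex in transcripts was also compared. The sum of Ezh1 and Ezh2 was 5.88, 6.72 and 4.89 times the level of Eed in Vehicle and 2.92, 2.91 and 3.68 times in PGE2, without overlap, a ratio that does not depend on how libraries are scaled. Of 7 ratios computed between members or their sums it was the only 1 whose groups did not overlap. It was chosen after the values were seen and was given no test. The difference of the group means was -2.66, and between -3.13 and -2.22 with any 1 library left out. The share of Eed in the PRC2 sum was 8.22% to 11.4% in Vehicle and 13.1% to 17.5% in PGE2, the only 1 of 12 shares computed within the families without overlap. That share draws largely on the same Eed and Ezh2 values as the ratio, so it is not a separate observation. Among single genes, 8.01% of all tested had groups without overlap in either direction.

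**Figure D2:**
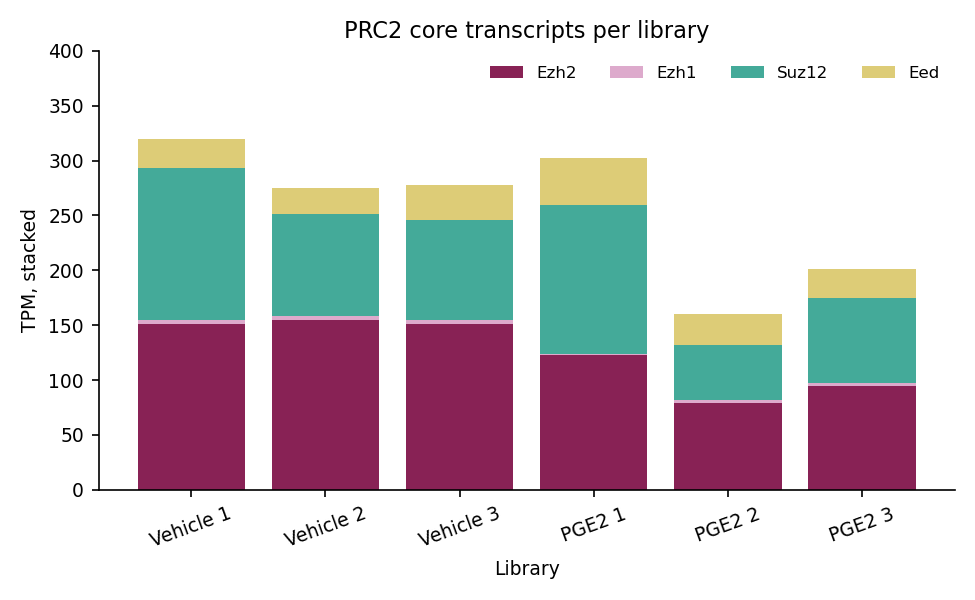
TPM of Ezh2, Ezh1, Suz12 and Eed stacked for each library (x axis). The Ezh2 segment is 151 to 154 TPM in the Vehicle libraries and 79.5 to 123 TPM in the PGE2 libraries, while the Suz12 segment of PGE2 1, at 136 TPM, is close to that of Vehicle 1.

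A noncoding gene on the opposite strand overlaps Ezh2 (Gm26625, 1.05 to 7.27 TPM) and another overlaps Suz12 (Gm26563, 4.83 to 20.4 TPM). The antisense genes Dnmt3aos and Dnmt3bos overlap Dnmt3a and Dnmt3b, and the noncoding gene B230319C09Rik, at 0 to 1.25 TPM, overlaps Tet3. Dnmt3aos was highest in Vehicle 3, at 3.14 TPM, the library with the highest Dnmt3a, and Dnmt3bos was at 1.33 TPM in Vehicle 1, the library with the highest Dnmt3b, and listed at 0 elsewhere. Gm26563 was highest in Vehicle 1, as was Suz12, but at 15.5 TPM in PGE2 2, where Suz12 was lowest. Gm26625 was highest in PGE2 1 and lowest in Vehicle 3, where Ezh2 read 151 TPM. B230319C09Rik was highest in Vehicle 3 and listed at 0 in PGE2 1, the library with the highest Tet3. Whether reads were assigned by strand is not given in the sources used here, so reads of such partners could be shared, which was not tested. No other gene's annotated transcript carried a stretch of 200 bases or more at 95% identity with a member, other than the antisense partner of Eed, which was listed at 0 in all libraries.

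The transcription factors of the E2F family, active as cells enter S phase, are known to drive Ezh2 and Dnmt1, so the promoter windows (250 bases before to 50 after the RefSeq start) were searched on both strands for TTTCCCGC, TTTCGCGC, TTTGCCGC and TTTGGCGC. Of 32851 windows 2.26% held any of these. Each of these motifs holds the letters CG, and the median window had 52.7% GC and 7 CG pairs. The matching windows were richer, with 64.3% GC and 31 CG pairs for Ezh2, 71% and 41 for Suz12, and 69.7% and 33 for Dnmt1. The share of 2.26% is thus not one for windows of like composition. Among the members, the windows of Ezh2 and Suz12 and 1 of the 3 of Dnmt1 held a match, shown here as 30 bases each on the gene's strand with the match in capitals. Their positions are chr6:47595009-47595038, chr11:79992876-79992905, chr9:20952824-20952853 and chr9:20952574-20952603.
Ezh2: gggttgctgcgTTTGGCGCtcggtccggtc
Suz12: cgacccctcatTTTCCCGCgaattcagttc
Dnmt1 upstream: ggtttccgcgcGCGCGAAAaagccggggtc
Dnmt1 downstream: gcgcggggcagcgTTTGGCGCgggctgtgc
The matches begin at base 4 after the start of Ezh2, 219 bases before that of Suz12, and 219 bases before and at base 34 after that of Dnmt1. The CREB element TGACGTCA, the target of the cAMP route that PGE2 can activate, was in 0 member windows and in 1.79% of all windows. The shorter TGACG was in those of Suz12 and Tet2 and in 20.8% of all. These are letter matches and not measured sites.

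Dnmt1 (ENSMUSG00000004099, chromosome 9, 20907209 to 20959888, minus strand, protein-coding), the maintenance methyltransferase, read 100.2, 79.9 and 55.3 TPM in Vehicle against 137, 50.8 and 40.9 TPM in PGE2. PGE2 1 was the highest of all libraries and the other PGE2 libraries were the lowest, so the PGE2 values enclosed the Vehicle values. The log2 change was -0.21 (95% confidence interval -1.23 to 0.81), with a limma adjusted p of 1.00. It was -0.73 without PGE2 1 and 0.13 without PGE2 3.

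Dnmt3a (ENSMUSG00000020661, chromosome 12, 3806007 to 3914443, plus strand, protein-coding), a de novo methyltransferase, read 4.39, 3.06 and 6.25 TPM in Vehicle against 5.26, 4.49 and 1.59 TPM in PGE2, which overlapped. Dnmt3b (ENSMUSG00000027478, chromosome 2, 153649450 to 153687730, plus strand, protein-coding), the other de novo enzyme, read 6.09, 0.61 and 2.12 TPM in Vehicle against 1.21, 2.39 and 0 TPM in PGE2. It was the most variable member in Vehicle, with an SD of 1.07 on the log2(TPM + 1) scale. Their log2 changes were -0.28 (95% confidence interval -1.55 to 1.00) and -0.75 (-2.35 to 0.85), both with a limma adjusted p of 1.00. Dnmt3a turned to 0.11 without PGE2 3, and Dnmt3b was -0.20 without Vehicle 1 and -1.63 with a pseudocount of 0.1.

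Dnmt1 held 90.5%, 95.6% and 86.9% of the summed methyltransferase TPM in Vehicle against 95.5%, 88.1% and 96.3% in PGE2. The log2 ratio of Dnmt1 to Dnmt3a was 3.84 ± 0.76 in Vehicle and 3.91 ± 0.62 in PGE2 (mean ± SD, n = 3 each). The difference of 0.07 had an exact two-sided permutation p of 0.9 (Benjamini-Hochberg 1.00 over the 2 ratios tested). It turned to -0.37 without Vehicle 3 and to -0.21 without PGE2 1.

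Tet2 (ENSMUSG00000040943, chromosome 3, 133463679 to 133545139, minus strand, protein-coding) was the highest of the TET genes in every library. It read 17.4, 9.49 and 11.3 TPM in Vehicle against 13.98, 21.2 and 7.37 TPM in PGE2. Tet3 (ENSMUSG00000034832, chromosome 6, 83362373 to 83459084, minus strand, protein-coding) read 7.07, 5.88 and 9.03 TPM in Vehicle against 9.08, 6.10 and 4.86 TPM in PGE2. For both genes the PGE2 values enclosed the Vehicle values. Tet1 (ENSMUSG00000047146, chromosome 10, 62804570 to 62908996, minus strand, protein-coding), best known from pluripotent cells, read 2.40, 2.47 and 2.52 TPM in Vehicle against 1.72, 1.65 and 4.98 TPM in PGE2. Its Vehicle values were near identical, and PGE2 3 alone lay above them.

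The fitted log2 change was 0.08 (95% confidence interval -1.01 to 1.16) for Tet2, -0.14 (-1.21 to 0.93) for Tet3 and 0.02 (-1.24 to 1.27) for Tet1, each with a limma adjusted p of 1.00. Each turned with 1 library left out. Tet2 was -0.25 without PGE2 2 and -0.10 without Vehicle 2, Tet3 was 0.04 without PGE2 3 and 0.01 without Vehicle 3, and Tet1 was -0.37 without PGE2 3. The TET sum was 26.9, 17.8 and 22.9 TPM in Vehicle against 24.8, 28.99 and 17.2 TPM in PGE2. Tet2 made up 49.5% to 64.8% of it in Vehicle and 42.8% to 73.3% in PGE2.

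**Figure D3:**
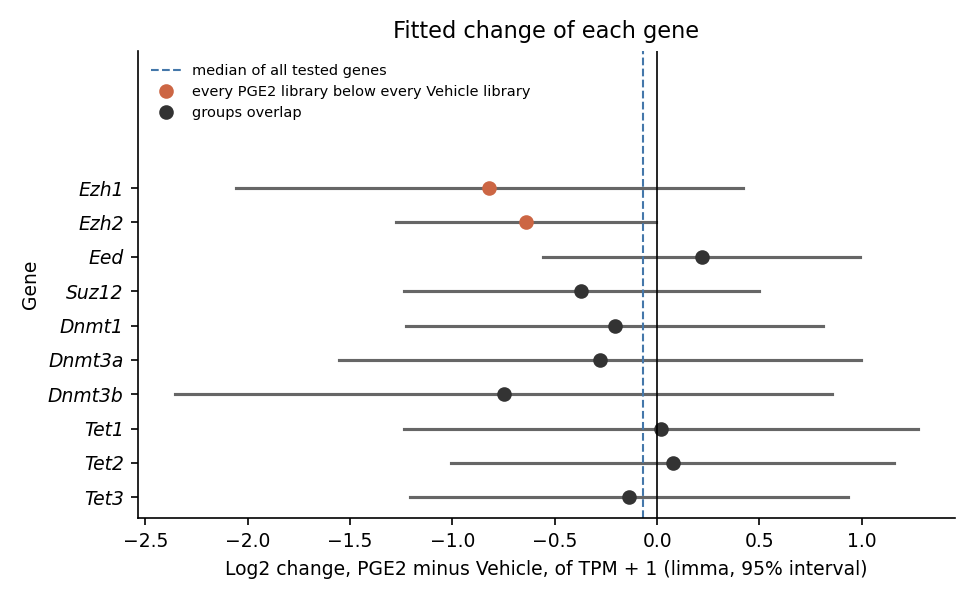
Log2 change of TPM + 1, PGE2 minus Vehicle, for each gene with its 95% interval from limma (x axis), beside the median of all tested genes (dashed). Ezh2 and Ezh1, in orange, are the genes without overlap between the groups, and the interval of Ezh2, -1.27 to -0.01, is the only one that leaves out 0.

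The spread between PGE2 libraries exceeded that between Vehicle libraries for 9 of the 10 genes, Dnmt3b being the exception, as it did for 69.5% of all tested genes. The median SD of the members on the log2 scale was 0.31 in Vehicle and 0.68 in PGE2, beside 0.43 and 0.66 for all tested genes. For Ezh2 it was 0.02 in Vehicle and 0.32 in PGE2. PGE2 1 was the highest of the 6 libraries for 3 members and PGE2 3 the lowest for 5. These counts were not taken over all tested genes, so they show no trait particular to the members.

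Dnmt1 and Ezh2 did not share their nearest profiles across the libraries. Profiles of log2(TPM + 1), each centred on its mean over the 6 libraries, were compared by their root-mean-square difference with 8369 other tested genes of 5 TPM or more. The nearest to Dnmt1 were Bag5 (0.05), Bicd2 (0.09), the proliferation marker Mki67 (0.09), the stem cell factor Pax7 (0.11) and Nup107 (0.13). Mki67 read 189.8, 141 and 103 TPM in Vehicle against 271, 98.6 and 89.3 TPM in PGE2, and Pax7 56.7, 47.9 and 33.3 TPM in Vehicle against 67.0, 30.3 and 23.9 TPM in PGE2, in the same order of libraries as Dnmt1. The nearest to Ezh2 were Trim56 (0.09), Gk5, Asnsd1, Sec22b and Cherp (0.11 each). The difference between Ezh2 and Dnmt1 themselves was 0.51, that between Ezh2 and Suz12 0.33 and that between Dnmt1 and Suz12 0.35. Ranked from the nearest, Ezh2 was 2104 of 8369 for Dnmt1, and Dnmt1 was 3568 of 8369 for Ezh2. Suz12 was 531 for Dnmt1 and 1033 for Ezh2. Most candidates were thus farther from either gene than Ezh2 and Dnmt1 were from each other. With 6 libraries and this many candidates, near profiles are a description, and all genes share the same libraries.

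The 22 genes of the S phase list, mostly replication proteins and E cyclins with E2f1 and the proliferation marker Mki67, were all tested, and 0 passed limma's test or had an unadjusted p under 0.05. Their summed level was 3164, 2434 and 2060.3 TPM in Vehicle against 3010.4, 2266 and 1800.1 TPM in PGE2, overlapping between the groups. Fitted values were lower in PGE2 for 20 of 22, beside 56.1% of all tested genes. The median log2 change was -0.14, beside -0.07 for all tested genes. The highest genes of the list were Rrm2, which encodes a ribonucleotide reductase subunit, at 556 to 593 TPM in Vehicle and 438 to 690.1 TPM in PGE2, the sliding clamp gene Pcna at 337 to 532 and 335 to 739 TPM, and the helicase gene Mcm3 at 242 to 696 and 196 to 425 TPM. The part of cell cycle state in the values of Ezh2 and Dnmt1 was not tested.

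**Figure D4:**
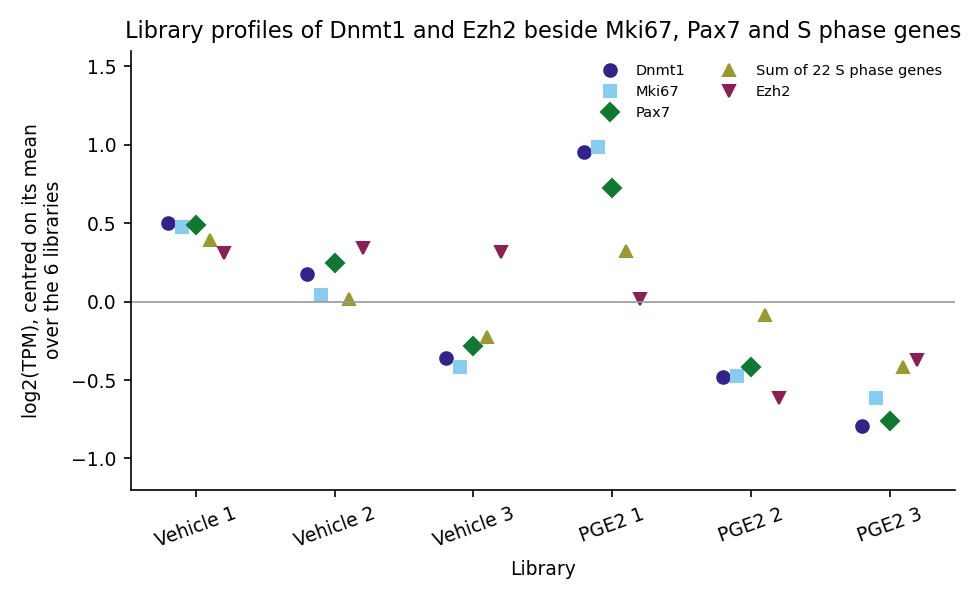
Log2(TPM) of Dnmt1, Ezh2, Mki67, Pax7 and the sum of 22 S phase genes in each library, each centred on its mean over the 6 libraries (y axis). Mki67 is also part of that sum. Dnmt1, Mki67 and Pax7 are highest in PGE2 1 and lowest in PGE2 3, while Ezh2 is level over the Vehicle libraries and lower in PGE2.

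The partners of these enzymes, taken from fixed lists, were split in direction. Of 52 tested partner genes 0 passed limma's test and 2 had an unadjusted p under 0.05 (Kdm6b and Gadd45a), beside 3.63% of all tested genes at that level. In all, 27 had higher and 25 lower fitted values, and the median log2 change was 0.02. Of 9 PRC2 accessory genes 7 were in the table and 6 were tested, 4 with higher and 2 with lower fitted values (median 0.12). The histone chaperone Rbbp4 read 769, 549 and 628 TPM in Vehicle against 514, 569.6 and 546 TPM in PGE2, and its paralog Rbbp7 read 231, 233 and 151 TPM in Vehicle against 278, 277 and 160.2 TPM in PGE2. Aebp2, a subunit that marks the complex without Polycomb-like proteins, read 191, 163 and 186 TPM in Vehicle against 275, 65.5 and 148 TPM in PGE2. Jarid2, found in the same form of the complex and known to guide PRC2 to chromatin, read 55.4, 17.3 and 17.3 TPM in Vehicle against 29, 53.9 and 14.3 TPM in PGE2. Each of these overlapped between the groups.

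PRC1, the complex that reads the PRC2 mark and ubiquitinates histone H2A, had 19 of 21 genes tested, 11 with higher and 8 with lower fitted values (median 0.07). Its Bmi1 subunit read 69.8, 77.4 and 107 TPM in Vehicle against 78.0, 65.2 and 74.0 TPM in PGE2, and the ubiquitin ligase Rnf2 48.3, 38.3 and 47.6 TPM in Vehicle against 84.1, 60.8 and 21.7 TPM in PGE2. Phc2, a polymerising subunit, read 21.1, 32.3 and 35.1 TPM in Vehicle against 54.5, 62.3 and 33.7 TPM in PGE2, with a limma adjusted p of 1.00. All 3 overlapped between the groups.

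Among 5 tested genes of H3K27 demethylation and H2A deubiquitination, 2 had higher and 3 lower fitted values (median -0.17). Kdm6b, which encodes an inducible H3K27 demethylase and thus opposes Ezh2, read 115, 81.3 and 52.1 TPM in Vehicle against 14.1, 45.9 and 53.6 TPM in PGE2. PGE2 3 lay above Vehicle 3, and the log2 change was -1.23 (95% confidence interval -2.37 to -0.10) with a limma p of 0.0353 before and 1.00 after Benjamini-Hochberg adjustment. Kdm6a, the constitutive demethylase gene, read 52.0, 28.3 and 9.95 TPM in Vehicle against 55.4, 11.3 and 24.2 TPM in PGE2. Asxl2, a cofactor of the deubiquitinase, read 42.3, 29.2 and 29.7 TPM in Vehicle against 42.9, 28.4 and 20.6 TPM in PGE2.

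Of 13 cofactors and readers of DNA methylation 12 were tested, 7 with higher and 5 with lower fitted values (median 0.04). Uhrf1, which brings DNMT1 to newly copied DNA, read 33.9, 39.2 and 34.0 TPM in Vehicle against 53.5, 41.6 and 27.8 TPM in PGE2. The remodeller Hells read 321, 304 and 212 TPM in Vehicle against 189.8, 299 and 381 TPM in PGE2, so that PGE2 1, highest for Dnmt1, was lowest for Hells. The corepressor Trim28 ranged from 127 to 236 TPM and the methyl-CpG reader Mbd2 from 78.4 to 139.6 TPM over the 6 libraries, with overlap between the groups.

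All 10 genes of DNA demethylation and TET partnership were tested, 3 with higher and 7 with lower fitted values (median -0.32), and 0 passed. Gadd45a, a stress gene that has been linked to DNA demethylation and responds to p53, had values of 177, 191 and 235 TPM in Vehicle against 47.7, 106 and 149.96 TPM in PGE2, without overlap. Its log2 change was -1.12 (95% confidence interval -2.03 to -0.21), with a limma p of 0.0203 before and 1.00 after Benjamini-Hochberg adjustment. Tdg, the glycosylase that excises what TET enzymes produce, read 57.6, 19.0 and 27.4 TPM in Vehicle against 30.4, 13.4 and 12.7 TPM in PGE2. Apex1, an endonuclease of the same repair route, was higher in every PGE2 library, at 42.3, 37.1 and 49.2 TPM in Vehicle against 84.4, 57.8 and 57.3 TPM in PGE2 (limma adjusted p = 1.00). Of the 52 tested partner genes, 1 was higher without overlap and 3 were lower. Beside this stand 8.01% of all tested genes without overlap in either direction. The glycosyltransferase Ogt, a binding partner of TET proteins, ranged from 39.6 to 73.4 TPM and overlapped.

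Methyltransferases use S-adenosylmethionine and TET enzymes use 2-oxoglutarate. Of 13 genes that make or clear these cofactors 10 were tested, 4 with higher and 6 with lower fitted values (median -0.13), and 0 passed or had an unadjusted p under 0.05. Mat2a, the enzyme that makes S-adenosylmethionine outside liver, read 203, 275 and 284 TPM in Vehicle against 327, 163 and 236 TPM in PGE2. Its regulatory subunit Mat2b ranged from 38.0 to 116 TPM and Idh3a, of the citric acid cycle, from 38.5 to 103 TPM, both with overlap.

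**Figure D5:**
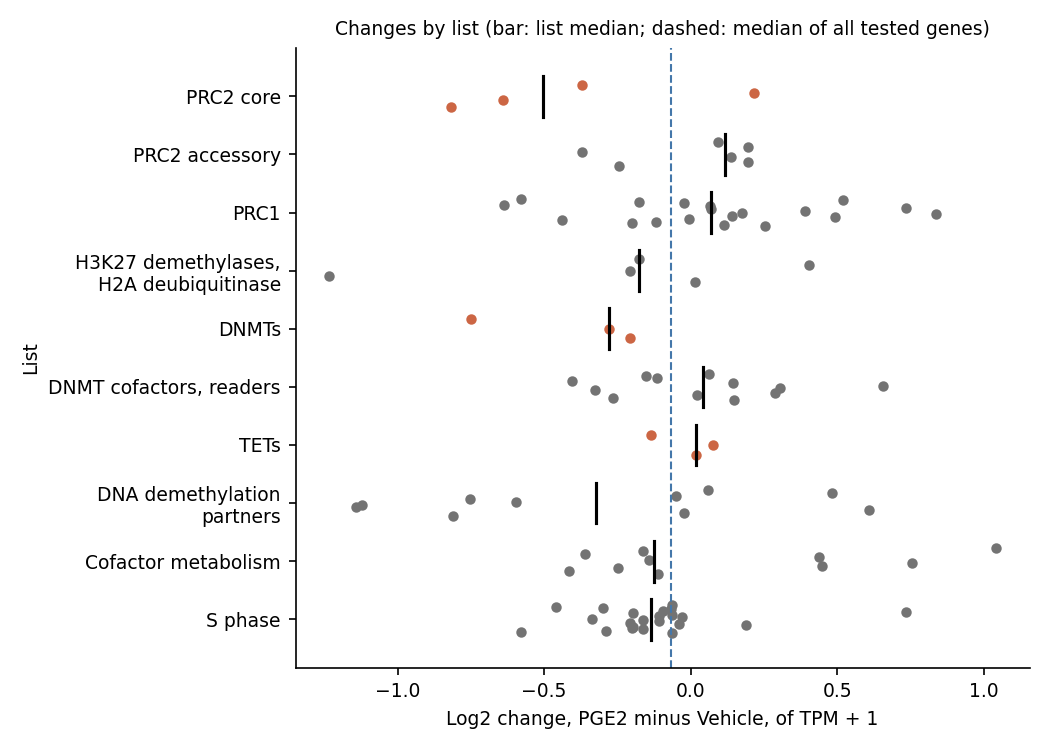
Log2 change of TPM + 1, PGE2 minus Vehicle, of every tested gene of the member groups (orange) and partner lists (grey), with list medians as bars and the median of all tested genes, -0.07, dashed. The PRC2 core has a median of -0.51 and its accessory genes 0.12, and most lists straddle 0.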

How the data were processed

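RNA-seq of 6 libraries was used. The authors deposited 1 table of TPM values with 1 column per library; its header names no unit, which was inferred from 2 decimals and sums of 992357 to 995645. STAR, RSEM and mm10 appear in the submitters' processing notes; tool versions, annotation and strand settings were not given in the sources used here. Read depth is unknown, so precision rests on the 3 libraries per group. Genes at 1 TPM or above in 3 or more libraries (12781) were compared on the log2(TPM + 1) scale with limma 3.58.1 (R 4.3.3; trended variance prior), with Benjamini-Hochberg adjustment over all of them, two-sided, threshold 0.05. The test was checked on simulated data in which each gene had the same spread in both groups. That check did not cover the larger spread between PGE2 libraries. Ratios used exact permutation. Positions are from GENCODE M21 and promoters from RefSeq (GRCm38.p6; all 10 members matched). Some RefSeq starts lie inside the GENCODE gene span and not at its edge, among them those of Ezh2, Tet1, Tet3 and the Dnmt1 window with E2F matches. Starts of single transcripts were not compared between these sources. Tables and figures used Python 3.11.15.

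Named genes are the members, 3 genes per list with the highest mean TPM, fixed partners and markers, and 5 nearest profiles each for Ezh2 and Dnmt1; ratios to Eed were added later. Members, lists and motifs were chosen with earlier results of these data known. Alternatives covered pseudocount, filter, scaling, variance prior, library weights, replicate block and each library left out.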

Additional observations from a re-analysis of the deposited data

How the results depend on the processing

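Of the 10 members 0 passed under each of the 17 alternatives of the limma fit. Over all tested genes the count was 0 except for 1 with a robust variance prior, 4 without a variance trend, and 0 to 2 with 1 library left out. The count of members with an unadjusted p under 0.05, 1 in the reported fit (Ezh2), was 0 with a filter on a mean of 5 TPM, quantile normalization, a robust prior, no trend and the replicate block, and 0 to 1 with 1 library left out. With the filter of 5 TPM, 6 members were tested, 4 of them lower and 1 (Ezh2) without overlap. With 1 library left out, 5 to 8 members had lower fitted values and 2 to 4 had every PGE2 library below every Vehicle library, the 4 (with Suz12 and Dnmt1) without PGE2 1, where 18.6% of all tested genes had that pattern. The genes with an unadjusted p under 0.05 numbered 464 over all libraries, 979 without PGE2 1 and 758 without PGE2 3.

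Ezh2, Ezh1, Suz12, Dnmt3b and Eed kept their direction under every alternative in which they were tested, Ezh2 between -0.81 and -0.50, Ezh1 between -1.19 and -0.48, Eed between 0.01 and 0.34, Suz12 between -0.74 and -0.03, and Dnmt3b between -1.63 (pseudocount 0.1) and -0.20 (without Vehicle 1). With 1 library left out, the log2 change ran from -0.73 to 0.13 for Dnmt1, from -0.52 to 0.11 for Dnmt3a, from -0.37 to 0.22 for Tet1, from -0.25 to 0.45 for Tet2 and from -0.35 to 0.040 for Tet3. Tet1 also turned to -0.019 with a pseudocount of 0.1 and to -0.0058 without mitochondrial genes. With 1 library left out, the ratio difference ran from -0.33 to 0.45 for Ezh2 to Ezh1 and from -0.37 to 0.40 for Dnmt1 to Dnmt3a. With pseudocounts of 0.1 and none it was 0.54 and 0.61 for the first and 0.16 and 0.17 for the second. The cause was not tested. Same-numbered libraries of the groups did not deviate together (r of -0.06, -0.04 and 0.07 across genes), so the replicate block was not taken as a pairing, and it changed no call. TPM gives no limit of detection, so low values, as for Dnmt3b and Ezh1, carry an unknown counting error.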

Other observations

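Genes that these enzymes are known to keep silent in body cells were mostly near 0 in both groups, and 0 of the 3 tested passed limma's test or had an unadjusted p under 0.05. Of 12 genes, mostly of the germline, whose silencing depends on DNA methylation, 1 reached the filter. It was Taf7l, which encodes a testis form of a general transcription factor and read 5.03, 0.16 and 1.91 TPM in Vehicle against 3.60, 2.18 and 1.02 TPM in PGE2. Asz1, a gene of the piRNA pathway, was listed at 0 in all libraries but PGE2 2, where it read 3.64 TPM. Rhox5, a reproductive homeobox gene, read 0.77, 0 and 1.84 TPM in Vehicle with all PGE2 libraries listed at 0. Of 14 developmental and cell cycle genes that PRC2 is known to silence, 2 reached the filter. Cdkn2a, which encodes the p16 and ARF inhibitors of proliferation, read 7.72, 1.13 and 0 TPM in Vehicle against 0, 3.03 and 0.71 TPM in PGE2. Pax6, a neural and eye regulator, read 2.51, 0 and 2.20 TPM in Vehicle against 1.58, 8.08 and 0.75 TPM in PGE2. Cdkn2b, which encodes the p15 inhibitor, read 1.30, 5.80 and 0.39 TPM in Vehicle against 0, 0.89 and 0 TPM in PGE2 and was not tested. The groups overlapped for these 3 regulators.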
